A study of Mus musculus with 6 samples.

Results

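The non-clustered delta protocadherins are single-gene members of the cadherin superfamily, chosen here by symbol as Pcdh1, Pcdh7, Pcdh8, Pcdh9, Pcdh10, Pcdh17, Pcdh18, Pcdh19 and Pcdh20. All 9 had a row among the 21927 rows of the table of cellular genes, and 8 of them passed the filter on low values, a mean of at least 10 normalized counts and were tested among 15800 features. The material was RNA of the vermis, the strip along the midline of the cerebellum, from mice aged 8 weeks. The study compared 3 dCas mice, its controls, with 3 LINE-1a mice, in which the retrotransposon LINE-1 is activated by the study's description. The sources used here do not give how that activation is driven, in which cells, or which further alleles both strains carry. Each mouse gave 1 library. Values are normalized counts, that is reads per gene divided by 1 size factor per library, and errors are SDs with n = 3 per group unless stated.

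Protocadherins sit in the cell membrane with extracellular cadherin repeats that bind mostly to the same protein on a neighbouring cell. The delta group is spread over several chromosomes, unlike the clustered protocadherins, and its members are switched on in different sets of neurons, where they act in sorting, axon growth and synapse formation or removal. Pcdh1, Pcdh7 and Pcdh9 belong to the delta-1 subgroup, whose cytoplasmic tail carries a docking site for protein phosphatase PP1. Pcdh8, Pcdh10, Pcdh17, Pcdh18 and Pcdh19 form the delta-2 subgroup, several of which recruit the WAVE complex that drives actin assembly. Pcdh20 is a related gene that many schemes place in neither subgroup.

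The libraries held between 23483158 and 33445789 reads over the gene table. By the Y-linked genes Ddx3y, Uty, Kdm5d and Eif2s3y, LINE-1a 1 and LINE-1a 2 were female and the other 4 libraries male, so group and sex are partly confounded. Markers of the cerebellum were high in every library, with the 5 Purkinje cell markers summing to between 65282 and 112110 normalized counts and the 5 granule cell markers to between 72566 and 100385. Markers of the choroid plexus, the ventricular epithelium next to the vermis, differed far more between libraries. They summed to 85225 for dCas 1, 35752 for LINE-1a 2 and 106894 for LINE-1a 3, while the other 3 libraries had sums from 1122 to 1773. LINE-1a 2 stood apart from the rest with the lowest sums of oligodendrocyte markers (113627, against 167463 to 321554) and of astrocyte and Bergmann glia markers (29984, against 56873 to 83057). It also had the highest share of ribosomal RNA in the table of repeats, at 10.2% against 5.39% to 7.86%.

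Pcdh9 far exceeded every other member in this tissue. Per kb of exon it stood at 4177 ± 654 normalized counts (SD over the 6 libraries), higher than 99.0% of the 15191 tested genes with a known length. It held between 90.3% and 93.8% of the normalized counts of the 9 genes in each library. Pcdh7 (74.4 ± 15.2 per kb) and Pcdh17 (65.8 ± 7.47 per kb) came next, with ranges over the 6 libraries that overlapped each other and did not reach Pcdh9. The range of Pcdh7, from 49.9 per kb, also overlapped that of Pcdh20, which reached 51.2, while Pcdh17, from 55.4, lay above it. These 2 stood below the median tested gene, which was at 101 normalized counts per kb.

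A lower tier held Pcdh20 (27.2 ± 13.3 per kb), Pcdh1 (19.2 ± 2.06), Pcdh18 (17.8 ± 4.84), Pcdh10 (15.5 ± 1.66) and Pcdh19 (10.4 ± 2.11), in which each gene's range overlapped that of the next. Pcdh8 was lowest of the 9, at 1.39 ± 0.674 normalized counts per kb, with no overlap with Pcdh19. Exon lengths were taken from GENCODE, from 4.54 kb for Pcdh8 to 15.9 kb for Pcdh10, and need not be those the authors counted on.

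**Figure D1:**
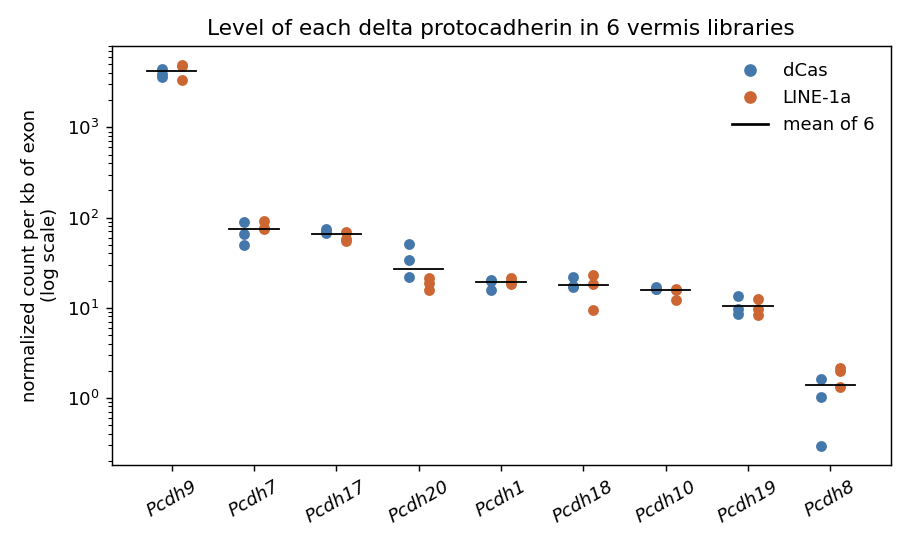
Normalized count per kb of exon (log axis) for the 9 delta protocadherins in the 3 dCas (blue) and 3 LINE-1a (orange) libraries, with the mean of all 6 as a line. Pcdh9 lies near 4177 per kb, 56.1 times the next gene, and Pcdh8 near 1.39 per kb.

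The genes also differ in their start regions and in size. The 250 bases before the RefSeq start (GRCm38.p6) could be read for 8 of the 9 members, and held between 3 CpG dinucleotides in Pcdh20 and 23 in Pcdh18, against a median of 6 over 32536 RefSeq promoters. The 4 shown are those of the most and least abundant members, Pcdh9 (chr14:93890680-93890929, minus strand) and Pcdh8 (chr14:79771313-79771562, minus strand), and of the pair whose groups did not overlap, Pcdh10 (chr3:45378148-45378397, plus strand) and Pcdh20 (chr14:88471397-88471646, minus strand). Capitals mark CpG dinucleotides.
Pcdh9: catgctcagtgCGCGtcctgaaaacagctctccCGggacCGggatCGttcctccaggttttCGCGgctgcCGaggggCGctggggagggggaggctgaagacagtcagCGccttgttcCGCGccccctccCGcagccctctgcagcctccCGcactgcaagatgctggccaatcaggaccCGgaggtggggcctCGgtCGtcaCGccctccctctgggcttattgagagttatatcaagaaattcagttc
Pcdh8: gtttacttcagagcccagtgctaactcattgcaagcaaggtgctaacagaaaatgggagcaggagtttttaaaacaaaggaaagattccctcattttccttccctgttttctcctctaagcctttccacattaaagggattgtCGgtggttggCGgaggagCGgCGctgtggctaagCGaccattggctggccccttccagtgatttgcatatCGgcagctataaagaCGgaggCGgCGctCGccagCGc
Pcdh10: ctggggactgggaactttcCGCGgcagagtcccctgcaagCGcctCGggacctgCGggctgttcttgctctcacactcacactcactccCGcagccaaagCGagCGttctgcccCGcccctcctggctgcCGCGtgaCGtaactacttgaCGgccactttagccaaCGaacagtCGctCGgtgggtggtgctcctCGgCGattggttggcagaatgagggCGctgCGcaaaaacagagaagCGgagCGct
Pcdh20: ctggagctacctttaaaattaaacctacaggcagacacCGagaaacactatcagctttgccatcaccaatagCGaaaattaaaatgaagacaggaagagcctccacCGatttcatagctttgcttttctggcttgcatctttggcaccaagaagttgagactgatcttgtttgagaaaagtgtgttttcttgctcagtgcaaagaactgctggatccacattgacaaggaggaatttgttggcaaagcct

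The Pcdh9 window held 18 CpG dinucleotides, that of Pcdh10 held 22 and that of Pcdh8 held 11. Of 4 motifs searched on both strands, the MEF2 consensus can contain TATAAA, though no window held both. GGGCGG occurred in 4 of the 8 windows (Pcdh10, Pcdh17, Pcdh18 and Pcdh19) and in 33.0% of all promoters. TATAAA occurred in Pcdh8 alone of the 8, against 12.3% of all promoters, and TGACGT, the core of the cyclic AMP response element, in Pcdh10 alone, against 6.50%. The MEF2 consensus was matched in Pcdh20 alone, against 2.89% of all promoters. A match describes the letters of this window and is not evidence of binding.

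In LINE-1a against dCas vermis, no delta protocadherin passed the test over all genes. limma called 0 of the 8 tested members at an adjusted p under 0.05, against 23 of all 15800 features (0.146%), and edgeR and DESeq2 called 0 of the 8 as well, against 0.146% and 0.88% of all features. At an unadjusted p under 0.05, each of the 3 tools had 1 member, Pcdh20, on the lower side, against 7.35% of all features lower in limma. The groups did not overlap for 2 of the 8, Pcdh10 and Pcdh20, both lower, against 12.3% of all features lower and 22.1% in either direction. The median log2 fold change of the 8 was -0.11, beside 0.028 for all features, with 3 members above 0 and 5 below. This median turned to 0.0092 with all libraries scaled to equal totals, which moved the median of all features to 0.15.

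The members above 0 were the delta-1 genes and those below 0 the 4 tested delta-2 genes and Pcdh20, but the interval of 7 of the 8 included 0. Pcdh19 turned to 0.077 with equal totals. Pcdh1 turned to -0.037 without dCas 1, Pcdh18 to 0.15 without LINE-1a 2 and Pcdh9 to -0.25 with a trend over gene span removed. Since the subgroups were set side by side with these values known, the split is a description with no test.

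**Figure D2:**
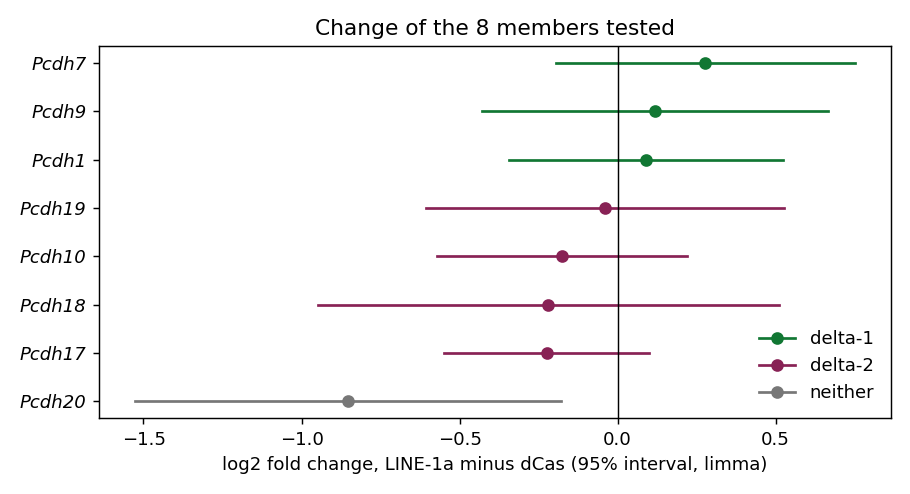
Log2 fold change of LINE-1a minus dCas with its 95% interval from limma for the 8 tested members, coloured by subgroup. The 3 delta-1 genes lie between 0.090 and 0.28, and the interval of Pcdh20, from -1.53 to -0.18, is the one that leaves out 0.

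Pcdh20, an adhesion gene that positions neurons in the developing mouse cortex, had the largest log2 fold change, in size, of the 8 tested members. It was 185, 121 and 281 normalized counts in dCas 1 to 3, and 118, 87.1 and 103 in LINE-1a 1 to 3. Every LINE-1a library was below every dCas library, but the lowest dCas value exceeded the highest LINE-1a value by a small margin, and dCas 3 was well above the other controls. The means were 196 ± 80.9 and 103 ± 15.4, which is -0.85 ± 0.30 (SE) on the log2 scale, with a limma adjusted p of 0.325.

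The 95% interval runs from a fold of 0.347 to one of 0.884, so it holds both a large decrease and a slight one. Between 108 and 422 reads stood behind each value. At the mean reads of all 6 libraries, not of each group, counting alone gives a CV of 7.02%. The CV was 41.3% among the dCas mice and 15.0% among the LINE-1a mice, which had fewer reads of this gene. Without dCas 3 the log2 fold change was -0.55 and without dCas 2 it was -1.16, with an adjusted p of 0.583 and 0.591 in limma. Pcdh20 stayed below 0 in all 19 alternatives, with adjusted p from 0.124 to 0.773. Without LINE-1a 2, the library that stood apart, it was -0.74. Several sums over genes also separated the groups, not all in the direction of Pcdh20. That of 6 genes around Pcdh10-dependent synapse removal was higher in LINE-1a mice (8458 to 9109, against 7952 to 8330 in the controls). Those of the clustered beta and gamma protocadherins were lower. The normalized counts of all rows of the table, to 6 digits, summed to 21498000 to 22305300 in the controls and 18940400 to 21045700 in LINE-1a mice. With all libraries scaled to equal totals, the log2 fold change of Pcdh20 was -0.73. Brainstem and nuclear markers summed to 2031 to 3012 in the controls and 938 to 1936 in LINE-1a mice (3 of 5 tested, all below 0). Endothelial markers summed to 6824 to 7714 and 3272 to 5814 (4 of 5 below 0, Flt1 higher without overlap at 0.31). Purkinje cell markers summed to 88600 to 112110 and 65282 to 81450 (4 of 5 below 0). No marker of these lists was at 0 throughout, and the part of the marker lists in the value of Pcdh20 was not tested. In bulk RNA, fewer cells of a type and less RNA per cell cannot be told apart.

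Pcdh10, also called OL-protocadherin, promotes axon growth and takes part in activity-driven synapse removal downstream of the MEF2 factors. It was 271, 254 and 257 normalized counts in the dCas libraries and 253, 248 and 195 in LINE-1a 1 to 3. The groups touched without overlapping, and LINE-1a 3 alone was clearly lower. Its log2 fold change was -0.18 ± 0.18 (SE, limma adjusted p = 0.598) and -0.056 without LINE-1a 3. The 3 dCas mice were closer to each other (CV 3.57%) than counting error alone gives (5.53% at the mean reads of all 6 libraries).

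Pcdh17 helps to bundle axons and to assemble synapses in the forebrain. It lay at 966, 867 and 924 in dCas and at 893, 754 and 720 in the LINE-1a mice. LINE-1a 1 lay inside the dCas range and the other LINE-1a libraries below it. This is a log2 fold change of -0.22 ± 0.14 (SE, limma adjusted p = 0.422), with a 95% interval of -0.55 to 0.10.

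Pcdh18, whose tail binds the adaptor Dab1, was 90.2, 118 and 92.7 in dCas and 124, 50.8 and 98.2 in the LINE-1a mice. LINE-1a 1 was the highest of all 6 libraries and LINE-1a 2 the lowest, so 1 library set the sign. The log2 fold change of -0.22 ± 0.33 (SE, limma adjusted p = 0.735) turned to 0.15 without LINE-1a 2.

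Pcdh19, on the X chromosome, underlies an epilepsy in women and girls who carry a mutated copy. It was 102, 141 and 88.7 in dCas and 131, 102 and 87.6 in the LINE-1a mice, with a difference in log2 of -0.041 ± 0.25 (SE, limma adjusted p = 0.941). The 2 female libraries, at 131 and 102, lay within the range of the 4 male libraries, 87.6 to 141. The sign depended on the libraries used, turning to 0.15 without dCas 2 and to 0.090 without LINE-1a 3.

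Pcdh8, or arcadlin, is induced by activity in rat hippocampal neurons and draws N-cadherin from the synapse. It was at the edge of detection, at 4.62, 7.36 and 1.33 normalized counts in dCas and 8.88, 9.68 and 6.04 in the LINE-1a mice, from 2 to 12 reads per library. The groups overlapped. It was below the filter, and with no filter its log2 fold change was 0.92 ± 0.51 (SE, limma adjusted p = 0.431).

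**Figure D3:**
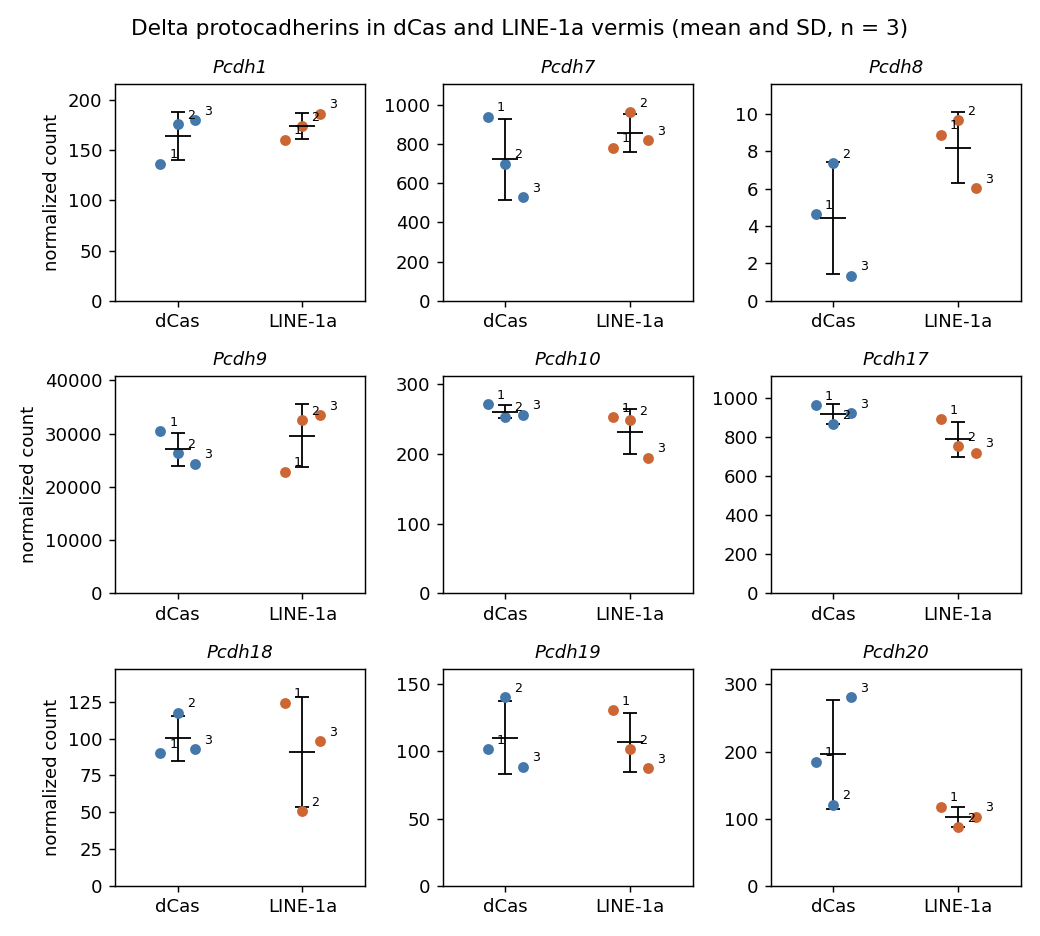
Normalized count (linear axes from 0) of each of the 9 genes in the 3 dCas and 3 LINE-1a libraries, numbered by replicate, with mean and SD. For Pcdh10 and Pcdh20 all LINE-1a points lie below all dCas points, and for the other 7 genes the groups overlap.

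Pcdh1, known in human airway epithelium for cell adhesion, was the shortest of the tested delta-1 genes in span. It was 136, 176 and 180 in dCas and 161, 174 and 186 in the LINE-1a mice. The LINE-1a values lay among the dCas values except for LINE-1a 3, which was slightly higher than all of them. The log2 fold change was 0.090 ± 0.19 (SE, limma adjusted p = 0.823), with an interval in fold from 0.788 to 1.44, and it turned to -0.037 without dCas 1.

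Pcdh9, the dominant member and a gene whose deletions have been reported in people with autism, was 30453, 26276 and 24373 in dCas and 22872, 32543 and 33461 in the LINE-1a mice. LINE-1a 1 was the lowest library of all and the other LINE-1a libraries were the highest. With at least 28328 reads per library, counting gives a CV of 0.517% at the mean reads of all 6 libraries. The spread of 11.5% in dCas and 19.8% in LINE-1a mice lay far above it. The log2 fold change was 0.12 ± 0.24 (SE, limma adjusted p = 0.816).

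Pcdh7, which binds the phosphatase PP1 and the histone chaperone Set, was 940, 700 and 529 in dCas and 782, 965 and 821 in the LINE-1a mice. The dCas libraries spanned nearly the whole range. Here the log2 fold change was 0.28 ± 0.21 (SE, limma adjusted p = 0.489), and 0.071 without dCas 3 or 0.49 without dCas 1.

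For both Pcdh7 and Pcdh9, dCas 1, LINE-1a 2 and LINE-1a 3 were above the other 3 libraries, in an order that differed between the 2 genes. These are the longest members, with a genome span of 415 kb for Pcdh7 (chromosome 5, 57717967 to 58133230, GRCm38) and 877 kb for Pcdh9 (chromosome 14, 93013410 to 93890679), while Pcdh20 spans 6.65 kb.

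Long genes as a whole were highest in the same 3 libraries. The 557 tested genes that span over 300 kb had a median log2 deviation from the dCas mean of 0.21 in dCas 1, 0.52 in LINE-1a 2 and 0.38 in LINE-1a 3. In the other libraries it was 0.0099 (dCas 2), -0.22 (dCas 3) and 0.024 (LINE-1a 1). For genes under 10 kb this deviation was lowest in LINE-1a 3 (-0.14) and highest in dCas 3 (0.057). The libraries high in long genes were also the 3 with the highest choroid plexus sums. Most of those sums was Ttr, at 81570 in dCas 1, 34324 in LINE-1a 2 and 102965 in LINE-1a 3. Kl and Kcnj13 were also highest in these libraries, but Clic6 was highest in dCas 3, at 760. The log2 fold change of Pcdh9 was -0.25 with the trend in span removed and -0.011 with the choroid plexus sum as a covariate, and that of Pcdh7 was 0.0086 and 0.14. Both alternatives were chosen after the data were seen.

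**Figure D4:**
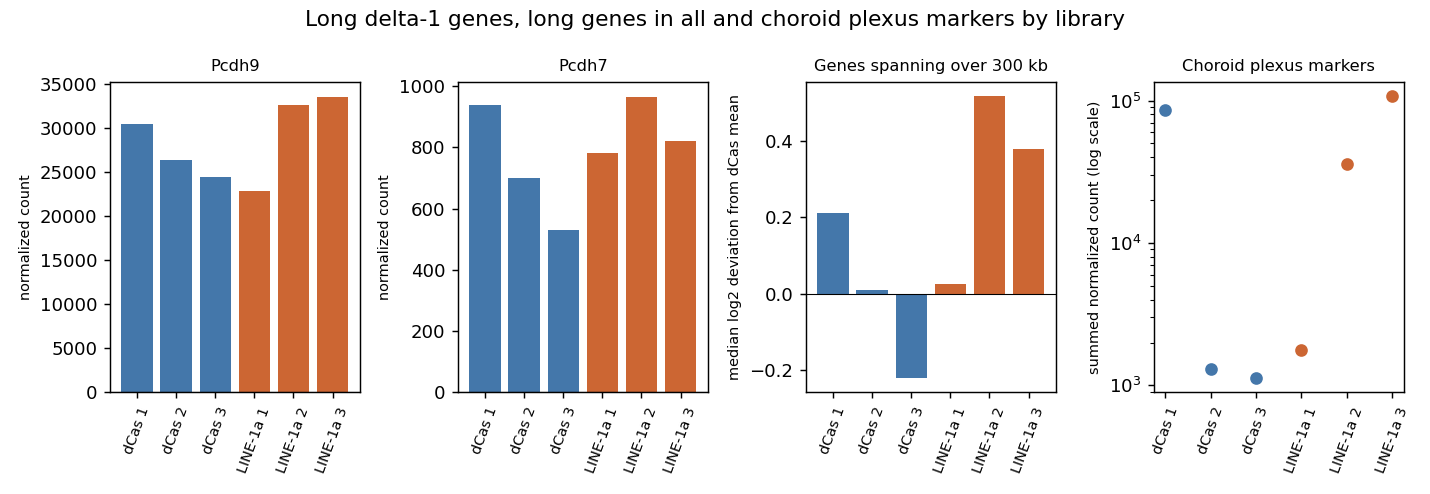
Normalized counts of Pcdh9 and Pcdh7, the median log2 deviation from the dCas mean of the 557 genes that span over 300 kb, and the summed normalized count of 5 choroid plexus markers (log axis), each by library (dCas blue, LINE-1a orange). In all 4 panels dCas 1, LINE-1a 2 and LINE-1a 3 are the highest 3 libraries.

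The closest relative outside the list, the X-linked delta-1 gene Pcdh11x, spans 620 kb. It was 505, 412 and 377 in dCas and 480, 615 and 462 in the LINE-1a mice (log2 fold change 0.27, limma adjusted p = 0.444). Its order was not that of Pcdh9, since LINE-1a 1 exceeded LINE-1a 3. Pcdh15, a component of hair cell tip links, had a log2 fold change of 0.077. Pcdh12, an endothelial protocadherin, was low, with means of 19.7 in dCas and 14.1 in the LINE-1a mice. Its log2 fold change was -0.52, with overlap between the groups (limma adjusted p = 0.494).

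Among these 3 and the large Fat, Dchs and Celsr cadherins, 0 of 12 tested genes passed in limma, 6 were above 0 and 6 below, and 1 was higher at an unadjusted p under 0.05, against 7.94% of all features. The groups did not overlap for 1 on the higher side, Celsr3, against 9.88% of all features. On the lower side they did not overlap for 2, Dchs1 and Fat2, against 12.3%. The one past the unadjusted threshold was Celsr3, a planar polarity cadherin of axon guidance, at 986, 1153 and 946 in dCas and 1209, 1442 and 1427 in the LINE-1a mice (log2 fold change 0.40). Celsr2 (-0.49) and Dchs1 (-0.47) lay on the other side. No Benjamini-Hochberg adjusted p of these 3 was below 0.325.

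The WAVE complex, the actin regulator that delta-2 tails recruit, gave 0 of 9 genes past the threshold in limma and 0 at an unadjusted p under 0.05. Its median log2 fold change was -0.12, with 2 genes above 0 and 7 below. The groups did not overlap for Wasf2 (0.30) and Nckap1 (0.25) on the higher side and Abi2 (-0.17) on the lower, 2 and 1 of 9, against 9.88% and 12.3% of all features. Cyfip2, the lower subunit of smallest p, was at -0.44 and Wasf3 at -0.38, each with overlap between the groups and lowest in LINE-1a 2. Other binding partners (Ppp1ca, Set, Taok2, Mapk14, Dab1, Smad3, Cdh2 and Nono) had a median of 0.12, with 5 of 8 above 0 and 0 of 8 past either threshold. Nono, a nuclear RNA-binding protein that binds Pcdh19, was at -0.48, Cdh2, N-cadherin, at 0.35 and Dab1 at 0.36, each with overlap between the groups. Nono was lowest in LINE-1a 2, at 1658, while LINE-1a 1, at 3545, lay inside the dCas range.

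For the genes around Pcdh10-dependent synapse removal (Mef2a, Mef2c, Mef2d, Fmr1, Mdm2 and Dlg4) the median was 0.22 on the log2 scale, and 0 of 6 passed either threshold. Of the 6, 4 were above 0 and 2 below. The 4 above 0 did not overlap between the groups, against 9.88% of all features on the higher side. They were Mef2a (0.35), Mdm2 (0.32), Fmr1 (0.28) and Mef2d (0.15). Mef2c (-0.12) did not overlap on the lower side, against 12.3%, and Dlg4 was at -0.045. Mef2a, a factor that induces Pcdh10 in neurons, was 1493, 1494 and 1424 in dCas and 1640, 2324 and 1741 in the LINE-1a mice (limma adjusted p = 0.325).

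Of 17 tested classical and related cadherins, 0 passed in limma, while an unadjusted p under 0.05 was reached by 5 on the higher and 2 on the lower side, against 7.94% and 7.35% of all features. Cdh7 was 2401, 2131 and 2065 in dCas and 2835, 3391 and 3289 in the LINE-1a mice, with no overlap (log2 fold change 0.53 ± 0.14, SE, limma adjusted p = 0.325). Cdh20 (0.71), Cdh22 (0.68) and Cdh4 (0.43) followed, each highest in LINE-1a 2 and LINE-1a 3. For these and Cdh7, dCas 1 was the highest control. The same libraries were high in long genes, and a part of gene span was not tested here. Of the 17, the groups did not overlap for 2 on the higher side, Cdh7 and Cdh4, and 1 on the lower. The shares of all features were 9.88% and 12.3%. The lower ones, Cdh6 (-0.66) and Cdh1 (-0.57), are named after their values were seen. The median of the 17 was 0.067, with 9 above 0 and 8 below.

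The clustered protocadherins had lower medians, and the difference was not tested. The median log2 fold change was -0.23 for 13 tested alpha genes, -0.64 for 21 beta genes and -0.59 for 22 gamma genes, beside -0.11 for the 8 delta protocadherins, and 0 of them passed in limma. In LINE-1a 1 to 3 the median log2 deviation from the dCas mean was -0.22, -1.16 and -0.41 for gamma genes. For beta genes it was -0.23, -1.01 and -0.46. LINE-1a 2, the library that stood apart, was lowest in both. At an unadjusted p under 0.05, 0 alpha, 11 beta and 17 gamma genes were lower, against 7.35% of all features. The groups did not overlap on the lower side for 0 alpha, 11 beta and 22 gamma genes, against 12.3%. Alpha genes share exons with each other, as do gamma genes, and beta genes are neighbours in a cluster. These counts were therefore not taken as counts of independent genes.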

How the data were processed

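The authors isolated total RNA of cerebellar vermis with a kit for fibrous tissue and prepared NEBNext Ultra II RNA libraries, per the labels' protocols. The authors deposited a signal of normalized counts, in which the reads of each library are divided by its size factor. The submitters' processing notes list the builds mm10 and GRCm38 and the tools DESeq2, SAMtools 1.9, bedtools 2.27.1, STAR 2.5.3a and Bowtie2 2.2.9, with no role for any. The sources used here do not give the counter, annotation or use of strand. Exons of Pcdh7, Pcdh8, Pcdh10 and Pcdh19 overlap an exon of an opposite-strand gene, over 2235, 436, 154 and 57 bases. If strand was not used, reads within those bases cannot be told from reads of that gene.

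All gene values were whole multiples of the smallest step of their library, within 0.001 reads (100% of values), which gave back the reads. The main test was limma-trend 3.58.1 (R 4.3.3) on log2 values of the normalized counts with a pseudocount of 1. It covered the 15800 features whose mean was 10 or more, with Benjamini-Hochberg adjustment over all of them at 0.05, two-sided. This scale understates changes of low genes. On the recovered reads, edgeR 4.0.16 called 23 features and DESeq2 1.42.0 called 139. The test was checked on simulated reads. Replicates of a group differed well beyond sampling noise (chi-square per degree of freedom 27.8 to 140). Nothing says whether the mice came from separate litters, and the p-values reflect only the variation among these animals. Gene models are from GENCODE M21 (GRCm38), which matched 96.1% of tested features by symbol. The members and lists were chosen with earlier results of these data known. All 9 members were named, with up to 4 genes of smallest p in each list of other cadherins and partners, of which the text names a part. Results are also given outside this rule for Fat2, Pcdh12, Pcdh15, Abi2, Mef2c, Dlg4, Cdh6 and Cdh1. The amino acid sequences were not used here. A member of the list of binding partners is not reported here.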

Additional observations from a re-analysis of the deposited data

How the results depend on the processing

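No member passed an adjusted p of 0.05 in any of 19 alternatives. Pcdh7, Pcdh10, Pcdh17 and Pcdh20 kept their direction in all 19. Pcdh9 turned to -0.25 with the span trend removed and to -0.011 with the choroid plexus covariate, and Pcdh19 to 0.077 with equal totals and to 0.057 with that covariate. With each replicate left out in turn, Pcdh1 ran from -0.037 to 0.16, Pcdh18 from -0.49 to 0.15 and Pcdh19 from -0.20 to 0.15.

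The median log2 fold change of the members (-0.11) was 0.0092 with equal totals, -0.22 with array weights and -0.19 with the span trend removed, and ran from -0.22 (without LINE-1a 1) to 0.012 (without LINE-1a 2) with each replicate left out. The number of features called (23) was 36 with equal totals, 1220 with array weights, 3 with sex as a covariate, 0 in the male libraries alone and 139 in DESeq2, and ran from 11 (without LINE-1a 3) to 40 (without dCas 1) with each replicate left out. The cause was not tested. In the male libraries alone LINE-1a 3 is the only LINE-1a library and is assumed to vary like the dCas mice. With the replicate number as a block 24 features were called and no member changed its call; same-numbered libraries deviated together for replicate 2 only (correlations -0.21, 0.14 and -0.095), so the numbers were not taken as pairs. Pcdh8 rested on 2 to 12 reads per library.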
